A study of Mus musculus with 16 samples.

Results

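The genes described here are 9 enzymes that carry nitrogen from amino acids into urea or open the breakdown of amino acids. They are the rows of the deposited count table whose gene identifier belongs to Cps1, Otc, Ass1, Asl, Tat, Gls2, Got1, Gpt and Gpt2, and all 9 were found among the 55385 genes of the table. Short-read RNA-Seq was made from 8 tissues (liver, kidney, muscle, heart, spleen, lung and both white and brown adipose) of male C57BL/6 mice, acquired at 12 weeks of age, with no other allele or agent in the labels. The Fed group ate freely and the Fasting group went 24 h without food. For each tissue, equal amounts from the 3 animals of a treatment were combined into 1 RNA sample and 1 library, which made 16 libraries. No value within a tissue therefore has a replicate error, and all tissues of a treatment came from the same pooled animals.

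Ammonia set free from amino acids is toxic, and in mammals the liver turns it into urea. Cps1 and Otc work inside the mitochondria of hepatocytes and make citrulline from ammonia and ornithine, after which Ass1 and Asl in the cytosol turn citrulline into arginine, the source of urea. The kidney also holds Ass1 and Asl and makes arginine from circulating citrulline. The transaminases Got1 (aspartate, cytosolic), Gpt (alanine, cytosolic) and Gpt2 (alanine, mitochondrial) move amino groups between amino acids and 2-oxoacids, Tat does so for tyrosine, and Gls2, the liver-type glutaminase, frees ammonia from glutamine. During a fast the liver uses the carbon of amino acids to make glucose, and their nitrogen leaves as urea.

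On GRCm38 the urea cycle genes lie at chr1:67123026-67231259 (Cps1, plus strand), chrX:10252305-10321024 (Otc, plus), chr2:31470207-31520672 (Ass1, plus) and chr5:130011258-130029247 (Asl, minus). The amino acid enzymes lie at chr8:109990437-109999803 (Tat, plus), chr10:128194457-128210004 (Gls2, plus), chr19:43499752-43524605 (Got1, minus), chr15:76695716-76699686 (Gpt, plus) and chr8:85492576-85527560 (Gpt2, plus).

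The library totals lay between 14245178 and 36069968 counts. The hepatocyte markers Alb, Apoa1, Ttr, Fgb and Ahsg summed to 83824 CPM (counts scaled to a common library total) in the fed liver and 71405 CPM in the fasting liver, against 2.63 to 163 CPM in the other 14 libraries, where none of the 5 was at 0. The kidney proximal tubule markers summed to 15967 CPM in the fed kidney and 12139 CPM in the fasting kidney, with 0 of 5 at 0. The liver and kidney libraries thus carried the defining markers of their labels.

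The stretch of DNA just before the gene start is shown for 4 members, because 3 of them (Got1, Gpt2 and Tat) were higher in the fasting liver and 1 (Otc) was lower. RefSeq promoter windows (GRCm38.p6) were found for 5 of the 9 members. The 250 bases before the start run 5′ to 3′ on the strand of the gene, with CG dinucleotides in capitals. The windows are chr19:43524606-43524855 (minus strand) for Got1, chr8:85492326-85492575 (plus strand) for Gpt2, chr8:109990186-109990435 (plus strand) for Tat and chrX:10252055-10252304 (plus strand) for Otc.
Got1: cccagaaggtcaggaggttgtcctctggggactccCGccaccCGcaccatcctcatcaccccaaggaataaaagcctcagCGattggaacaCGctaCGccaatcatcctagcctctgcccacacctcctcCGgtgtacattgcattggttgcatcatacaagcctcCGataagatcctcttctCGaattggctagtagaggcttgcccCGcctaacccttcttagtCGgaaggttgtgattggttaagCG
Gpt2: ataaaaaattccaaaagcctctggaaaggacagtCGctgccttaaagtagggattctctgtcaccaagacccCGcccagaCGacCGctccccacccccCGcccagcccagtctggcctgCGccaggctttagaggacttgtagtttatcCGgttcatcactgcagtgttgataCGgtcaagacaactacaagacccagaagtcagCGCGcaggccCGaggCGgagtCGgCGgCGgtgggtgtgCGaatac
Tat: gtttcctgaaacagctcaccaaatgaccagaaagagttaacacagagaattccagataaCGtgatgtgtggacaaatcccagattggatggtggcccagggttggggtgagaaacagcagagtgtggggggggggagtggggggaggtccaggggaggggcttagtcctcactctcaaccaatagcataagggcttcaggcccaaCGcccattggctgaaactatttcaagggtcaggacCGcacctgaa
Otc: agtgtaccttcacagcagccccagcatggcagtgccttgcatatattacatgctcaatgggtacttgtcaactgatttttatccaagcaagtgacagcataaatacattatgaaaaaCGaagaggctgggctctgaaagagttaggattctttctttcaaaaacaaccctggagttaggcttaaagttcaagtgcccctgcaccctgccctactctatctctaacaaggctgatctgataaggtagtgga
The Ass1 window, which is not printed, held 23 CG dinucleotides, the Gpt2 window 16, the Got1 window 11, the Tat window 3 and the Otc window 1, where the median of 32851 mouse promoter windows was 6. Ass1, Gpt2 and Got1 were thus above that median and Tat and Otc below it, which is a description of 5 windows. The windows were searched on both strands for 6 motifs. The TATA box, read as TATAAA, stood in 12.4% of all promoter windows. The cAMP response element stood in 1.55% in its full form, TGACGTCA, and in 17.8% as its first part, TGACG, which overlaps the full form. The glucocorticoid receptor motif AGAACA stood in 16.1%, the C/EBP motif in 9.56% and a nuclear receptor direct repeat in 0.0335%. None of the 6 was found in the window of any of the 5 members. An absent match says only that these letters are not in these 250 bases.

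In liver, 7 of the 9 genes were higher in the fasting library than in the fed one, Otc was lower and Gls2 was within the fold threshold. In bulk tissue, fewer cells of a type and less RNA per cell cannot be told apart. A gene was called when its log2 fold change exceeded 0.5 in size and Fisher's exact test (two-sided) on the counts of the pair of libraries gave p under 0.01, among genes with at least 1 CPM in either library. Of 14085 genes so tested in liver, 7.34% were called higher and 15.8% lower. The median log2 fold change was 0.9997 over the 9 members and -0.13 over all genes tested. This test compares 2 libraries, not the 2 conditions, and the intervals given below (95%, in brackets) cover counting error only. With TMM factors in place of library totals the median of all genes tested in liver moved from -0.13 to 0.00, and the same 8 members were called. When edgeR's exact test was given an assumed coefficient of variation of 0.2 between animals, 4 members (Asl, Tat, Got1 and Gpt2) passed in liver, and with 0.4 only Asl did.

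Among the 4 genes of the cycle itself, Cps1, which makes carbamoyl phosphate and controls entry to the cycle, stood at 6296 CPM in the fed and 12589 CPM in the fasting liver, a log2 fold change of 0.9997 (0.991 to 1.009). It held 0.63% of all counts of the fed library and 1.26% of the fasting one, as the 11th and then the 4th most counted gene. Cps1 alone thus took more counts than the other 8 members together in both liver libraries. Ass1, which joins citrulline and aspartate, was 1569.6 CPM fed and 2377 CPM fasting, a log2 fold change of 0.60 (0.58 to 0.62).

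Asl, which splits argininosuccinate into arginine and fumarate, showed the widest change of the 9, from 299 CPM in the fed liver to 1507 CPM in the fasting liver, a 5.04-fold rise between the libraries. Its log2 fold change was 2.33 (2.30 to 2.37). Otc, which joins carbamoyl phosphate to ornithine, went the other way, from 487 CPM fed to 309 CPM fasting, a log2 fold change of -0.65 (-0.70 to -0.61). With TMM factors the value for Otc was -0.52, just past the threshold.

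Because the 4 genes did not change by one factor, their proportions differed between the libraries. Compared per length of gene as TPM, Cps1 over Otc was 9.88 in the fed liver and 31.1 in the fasting liver. The length is 1 value per gene row, not that of the expressed transcript, so ratios and orders between genes are approximate. Their shift between the libraries does not depend on it. Ass1 over Asl was 10.5 fed and 3.16 fasting, and Cps1 over Asl 18.3 fed and 7.27 fasting. The 4 genes together made up 0.865% of counts in the fed liver and 1.68% in the fasting liver. In the fed liver the per-length order was Cps1 (2692 TPM), Ass1 (1544 TPM), Otc (272 TPM) and Asl (147.0 TPM). In the fasting liver Cps1 (5686 TPM) and Ass1 (2471 TPM) again led, and Asl (782 TPM) stood above Otc (183 TPM).

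Among the amino acid enzymes, Got1, which exchanges aspartate and oxaloacetate in the cytosol, was 155.9 CPM in the fed and 717 CPM in the fasting liver, a log2 fold change of 2.201 (2.15 to 2.25). Gpt2 was 384 CPM fed and 1143 CPM fasting, a log2 fold change of 1.57 (1.54 to 1.61), whereas the cytosolic Gpt was 225 CPM fed and 332 CPM fasting, a log2 fold change of 0.56 (0.51 to 0.61). Both alanine transaminases were thus higher, the mitochondrial one by the wider margin. Tat, a long-known glucocorticoid-induced enzyme, was 839.6 CPM fed and 2171 CPM fasting, a log2 fold change of 1.37 (1.35 to 1.39). Gls2 was 317 CPM fed and 335 CPM fasting, a log2 fold change of 0.08 (0.03 to 0.13), which did not pass the fold threshold.

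**Figure D1:**
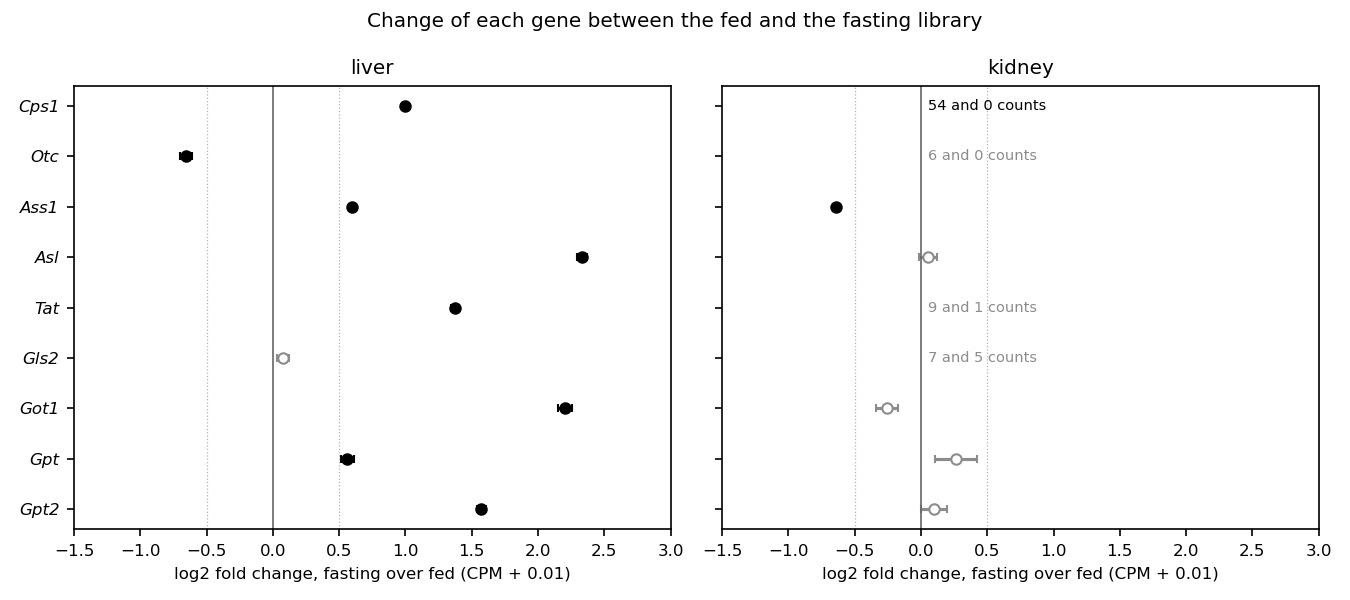
Log2 fold change of each gene, fasting over fed, in liver and kidney, with 95% counting intervals. Filled points passed the fold and count thresholds, open points did not, and genes under 1 CPM in both kidney libraries or with 0 counts in one are given by their fed and fasting counts. In liver 7 points lie right of 0.5 and Otc lies left of -0.5, while in kidney only Ass1 and Cps1 (54 and 0 counts) were called, both lower.

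Markers of the liver zones went both ways. The 6 periportal hepatocyte markers, of the zone where the urea cycle is known to be strongest, summed to 3136 CPM fed and 6911 CPM fasting, of which Pck1 was 1066 CPM and 4767.5 CPM, Hsd17b13 257 CPM and 512 CPM, and Sds 127 CPM and 229 CPM. The other 3 were near level or lower. Cyp2f2 was 1041 CPM fed and 731 CPM fasting, Ctsc 88.1 CPM and 66.1 CPM, and Hal 558 CPM and 605 CPM. The 8 pericentral markers summed to 7757 CPM fed and 11621 CPM fasting, with Cyp2e1 at 5477 CPM and 8507 CPM and Oat at 527 CPM and 1761 CPM. Cyp1a2 was 597 CPM fed and 194.6 CPM fasting, Lgr5 11.9 CPM and 7.25 CPM, and Glul 912 CPM and 794 CPM. Neither sum therefore stands for its whole list, and 0 markers of either list were at 0. Of marker lists for other cell types, pancreatic acinar markers summed to 114 CPM fed and 245 CPM fasting, adipocyte markers to 26.9 CPM and 130.5 CPM, and brown adipocyte markers to 540.3 CPM and 241 CPM. In the fed brown adipose library the adipocyte list (8820 CPM) stood above the brown adipocyte list (4980 CPM), the reverse of their order in both liver libraries. The part of any of these lists in the changes of the 9 genes was not tested.

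**Figure D2:**
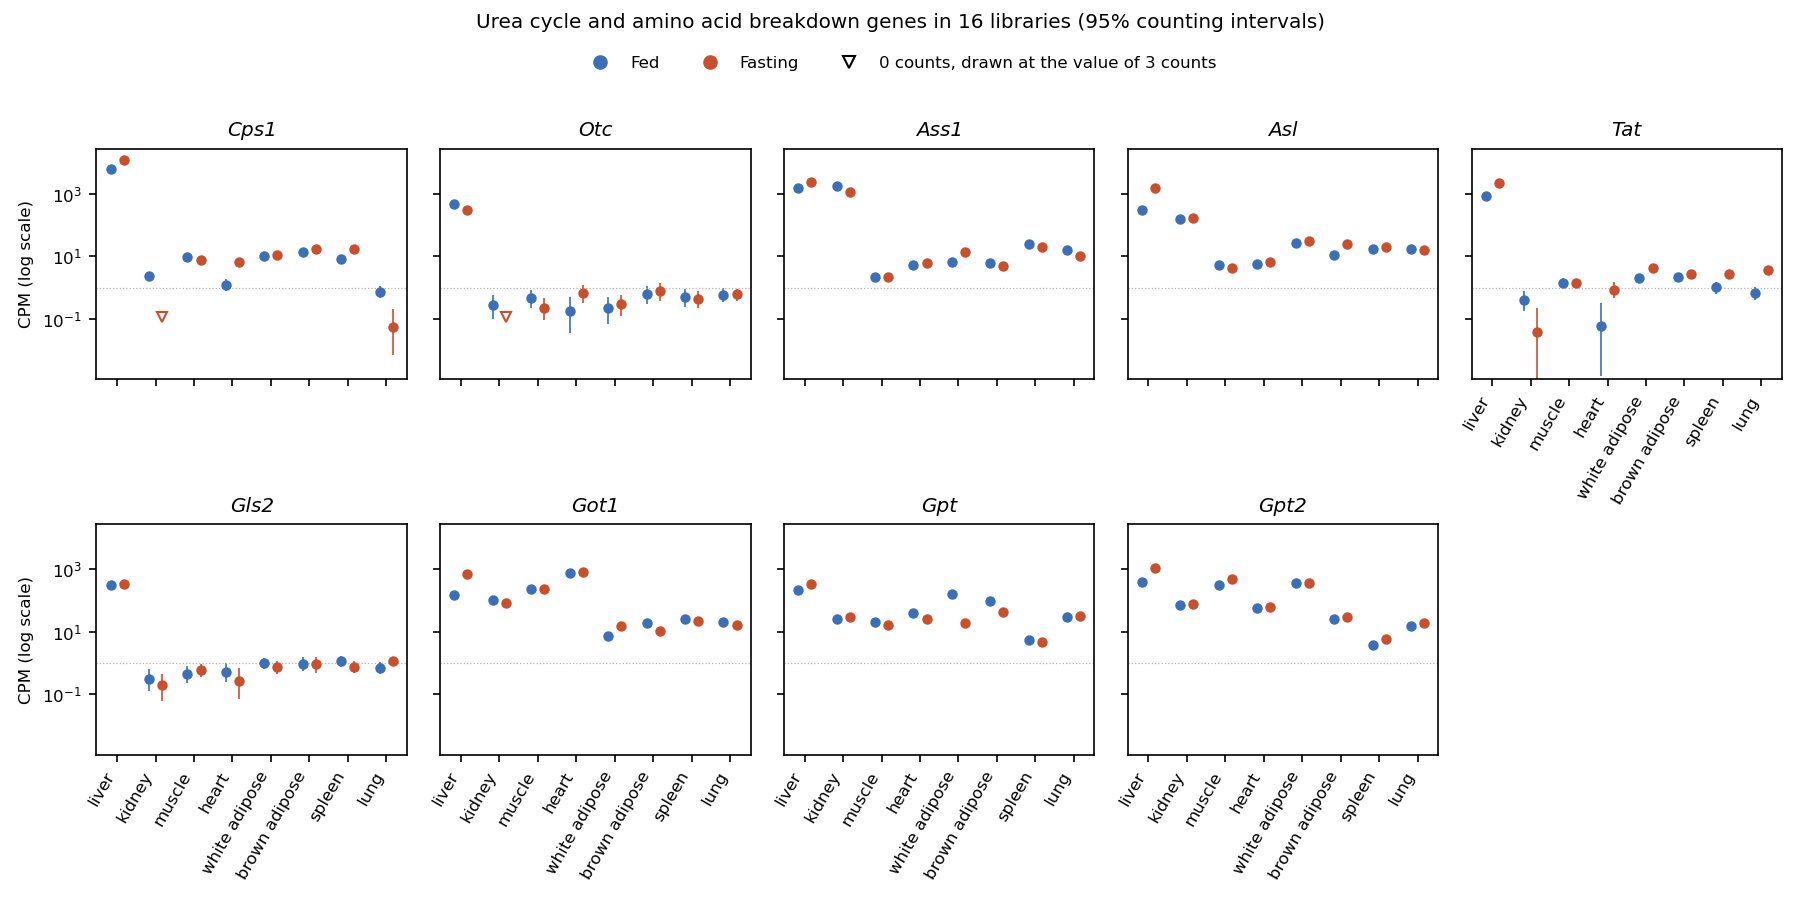
Level of each gene in CPM on a log axis in the fed (blue) and fasting (red) library of 8 tissues, with 95% counting intervals. Open triangles mark 0 counts and are drawn at the value of 3 counts. Cps1, Otc, Tat and Gls2 stand above 100 CPM only in liver, Ass1 and Asl also in kidney, and Got1, Gpt and Gpt2 in other tissues as well.

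In kidney, Ass1 and Asl were the cycle enzymes at high level, and Ass1 was lower in the fasting library. Of 16033 genes tested in kidney, 4.48% were called higher and 6.23% lower. Of the 6 members with at least 1 CPM, 0 were called higher and 2 (Ass1 and Cps1) lower, and their median log2 fold change was -0.10 against -0.06 for all genes tested. Ass1 was 1808 CPM in the fed and 1161 CPM in the fasting kidney, a log2 fold change of -0.64 (-0.66 to -0.62), so it was lower in the fasting kidney and higher in the fasting liver. Asl was 158 CPM fed and 164 CPM fasting, a log2 fold change of 0.05 (-0.01 to 0.12). Ass1 over Asl per length was therefore 22.9 in the fed and 14.2 in the fasting kidney.

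The proximal tubule markers, of the segment known to hold Ass1, were also lower in the fasting kidney (15967 CPM fed and 12139 CPM fasting), while the distal nephron markers were 7025 CPM fed and 8105 CPM fasting. Their part in the Ass1 value was not tested. The transaminases were near level, with Got1 at 102 CPM fed and 85.8 CPM fasting, Gpt at 25.0 CPM and 29.9 CPM, and Gpt2 at 70.8 CPM and 75.8 CPM. None of the 3 passed the fold threshold. Cps1 had 54 counts in the fed kidney (2.41 CPM) and 0 in the fasting kidney, at least 20.7-fold lower when 3 counts are taken as the floor. Otc had 6 counts and 0, Tat 9 and 1 and Gls2 7 and 5, all under 1 CPM.

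Ass1 shares sequence with a second row of the table. The processed pseudogene Gm5424 holds 38.6% of the 50-base stretches of the Ass1 transcripts, and it took 23.7% to 25.7% of the summed Ass1 and Gm5424 counts in the 4 liver and kidney libraries. How the authors' counting shared reads between them is not given in the sources used here, so the Ass1 level is uncertain by an amount these counts do not fix. Summed over both rows, the log2 fold change was 0.64 in liver and -0.65 in kidney, beside 0.60 and -0.64 for Ass1 alone. No other gene with at least 100 counts held 1% or more of a member's stretches. Gls2 overlaps the antisense gene Spryd4 by 97 exon bases, and which strand setting was used is likewise not stated.

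Whether a gene differed between liver and kidney was tested with all 16 libraries by edgeR's quasi-likelihood test, fitted on tissue plus treatment with 7 residual degrees of freedom. Of 23580 genes tested, 19.2% were higher in liver and 23.1% higher in kidney, and 9 of the 9 members were higher in liver. The smallest difference was that of Ass1, 1.14 ± 0.35 (SE) on the log2 scale with an adjusted p of 0.0207 by edgeR. Asl differed by 3.08 ± 0.55, Got1 by 2.90 ± 0.60, Gpt2 by 4.02 ± 0.39 and Gpt by 4.10 ± 0.76 (log2, SE). The Ass1 call depended on the scaling. With total counts alone the difference was 0.41 with an adjusted p of 0.353 by edgeR (0.00532 to 0.353 over all alternatives), and the fed to fasting CPM ranges of liver (1569.6 to 2377) and kidney (1161 to 1808) overlapped. Between the 2 scalings the median difference of all genes moved from -0.04 to -0.76.

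The tissue order of each gene was read from the fed to fasting range of CPM, and neighbours whose ranges overlapped were taken as not different beyond their spread. On this reading 8 of the 9 genes were highest in liver, and Got1 was highest in heart. The liver range was clear of the next tissue for Cps1, Otc, Asl, Tat, Gls2 and Gpt, but overlapped with kidney for Ass1 and with muscle for Gpt2. With TMM factors 8 of 9 were again highest in liver, the liver range of Ass1 was clear of kidney, and the heart and liver ranges of Got1 overlapped.

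Got1 stood at 756 CPM in the fed and 839 CPM in the fasting heart, where the enzyme serves the malate-aspartate shuttle. It was 239 CPM and 231.5 CPM in muscle, 26.4 CPM and 21.5 CPM in spleen, 21.4 CPM and 16.1 CPM in lung, 19.8 CPM and 10.6 CPM in brown adipose, and 7.60 CPM and 15.9 CPM in white adipose (fed and fasting in each). The heart range was clear of the liver range, and the liver range, the widest of the 8, enclosed that of muscle. The fasting liver at 717 CPM lay under the heart and the fed liver at 155.9 CPM under muscle. With TMM factors the fasting liver, at 1176 CPM, stood above both heart libraries, at 831 CPM and 957 CPM.

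Gpt2 stood at 319 CPM in the fed and 501 CPM in the fasting muscle, at 372 CPM and 366 CPM in white adipose and at 58.9 CPM and 63.2 CPM in heart. It was 25.8 CPM and 29.1 CPM in brown adipose, 15.5 CPM and 19.6 CPM in lung, and 3.84 CPM and 6.04 CPM in spleen. The muscle range overlapped with that of white adipose on library totals, but with TMM factors the ranges were apart, at 575 to 957 CPM in muscle and 261 to 288 CPM in white adipose. Gpt stood at 165 CPM in the fed and 19.1 CPM in the fasting white adipose, at 94.0 CPM and 41.8 CPM in brown adipose and at 39.9 CPM and 25.8 CPM in heart. It was 30.4 CPM and 32.0 CPM in lung, 20.8 CPM and 16.6 CPM in muscle, and 5.43 CPM and 4.71 CPM in spleen. Gpt was thus lower in the fasting library of both adipose tissues, where Gpt2 was near level.

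In white adipose, 3 of the 7 members tested were higher in the fasting library and 1 was lower, where 19.8% and 9.23% of 17494 genes tested were. Their median log2 fold change was 0.18, against 0.07 for all genes tested (-0.05 with TMM factors). Gpt was 8.66-fold lower with fasting, its log2 fold change being -3.11 (-3.25 to -2.98), the widest fall of a member above 10 CPM in any tissue. Ass1 was higher, from 6.53 CPM to 13.9 CPM, as was Got1, with log2 fold changes of 1.08 (0.81 to 1.37) and 1.06 (0.81 to 1.32). Tat was 2.02 CPM and 4.27 CPM. Adipocyte markers summed to 12447 CPM fed and 12313 CPM fasting, with 0 of 4 at 0, and the part of adipocytes in the Gpt value was not tested. Proximal tubule markers, of a cell type with high Ass1, summed to 43.1 CPM fed and 719 CPM fasting, of which Lrp2 alone was 34.9 CPM and 709.6 CPM, while Slc34a1 was 5.07 CPM and 6.96 CPM. Their part in the Ass1 value was not tested.

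In brown adipose, 1 of the 7 members tested was higher in the fasting library and 2 were lower, where 8.68% and 12.2% of 15374 genes tested were. Their median log2 fold change was 0.17, against -0.03 for all genes tested. Gpt was lower by 2.25-fold, a log2 fold change of -1.17 (-1.31 to -1.03), and Got1 by 1.87-fold, a log2 fold change of -0.90 (-1.19 to -0.62). Asl was higher, from 11.3 CPM to 25.4 CPM, a log2 fold change of 1.17 (0.92 to 1.44). Skeletal muscle markers summed to 2074 CPM in the fed and 968 CPM in the fasting brown adipose, and muscle is a tissue with high Got1, so the part of muscle in the Got1 value was not tested. Adipocyte markers summed to 8820 CPM fed and 10080 CPM fasting.

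In muscle, Gpt2 was the 1 member of 7 tested that was called, with a log2 fold change of 0.65 (0.61 to 0.69), and 0 were lower, where 7.8% and 16.4% of 13701 genes tested were higher and lower. In heart, 1 of 6 was higher (Cps1, at trace level) and 1 lower (Gpt, -0.63, with -0.81 to -0.45 as its interval), where 7.01% and 9.65% of 15135 genes were. Heart also held more adipocyte marker counts in the fasting library (832 CPM) than in the fed one (372 CPM). The member medians were -0.06 in muscle and 0.15 in heart, beside -0.14 and -0.07 for all genes tested. In spleen, 3 of 8 were higher (Cps1, Tat and Gpt2) and 0 lower, where 3.62% and 2.33% of 17358 genes were. The spleen libraries also differed in pancreatic acinar markers (572 CPM fed and 11.8 CPM fasting) and erythroid markers (2644 CPM and 6466 CPM), whose part in these calls was not tested. In lung, 1 of 7 was higher (Tat) and 1 lower (Ass1), where 4.23% and 10.1% of 17575 genes were. The member medians were 0.00043 in spleen and 0.08 in lung, beside -0.02 and -0.09 for all genes tested. Ass1 in lung was 16.3 CPM fed and 10.5 CPM fasting, a log2 fold change of -0.64 (-0.84 to -0.44). In the same lung libraries the proximal tubule markers summed to 322 CPM fed and 179 CPM fasting, cardiomyocyte markers to 942 CPM and 484 CPM and B cell markers to 114 CPM and 55.1 CPM, while lung epithelium markers were 21263 CPM and 21336 CPM. Of the proximal tubule sum, Lrp2 alone was 314 CPM and 172 CPM, while Slc34a1 was 5.02 CPM and 4.38 CPM. The part of these cell types in the Ass1 value was not tested. Of the spleen and lung calls, those of Tat and Gpt2 were of genes under 10 CPM in both libraries.

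**Figure D3:**
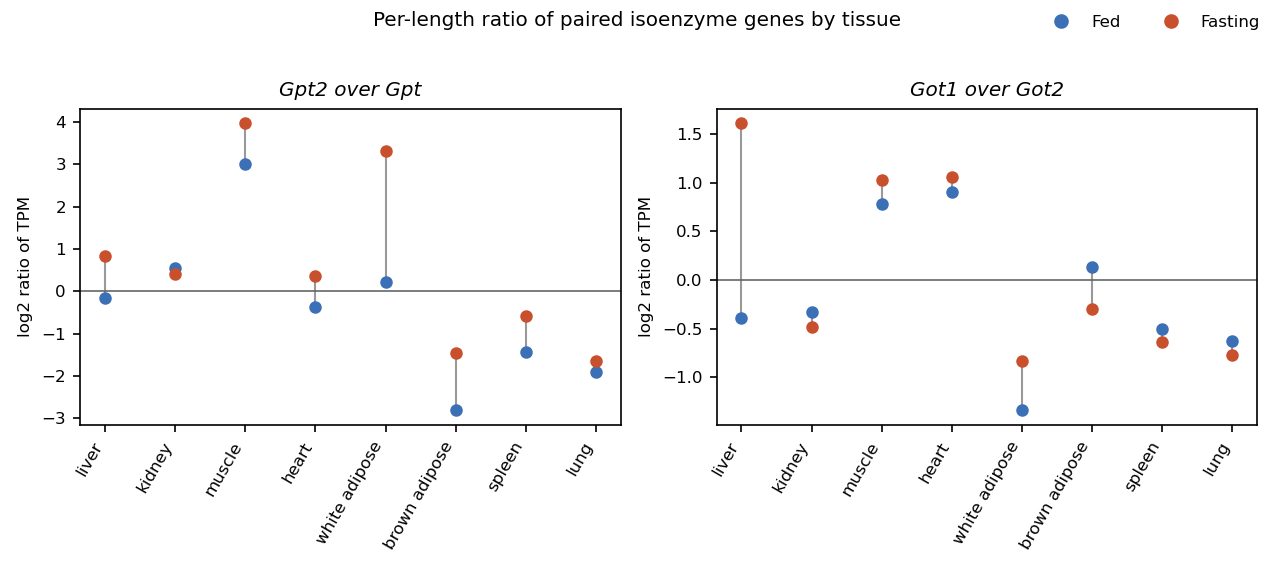
Ratio of paired isoenzyme genes on the log2 scale, from TPM, in the fed (blue) and fasting (red) library of each tissue. Gpt2 over Gpt was higher in the fasting library in 7 of 8 tissues, and Got1 over Got2 parted most between the liver libraries.

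The alanine and aspartate transaminases each come in a cytosolic and a mitochondrial form from separate genes, and the balance between the forms was compared per length. Gpt2 over Gpt was 0.891 in the fed and 1.80 in the fasting liver, and 1.17 in the fed and 10.004 in the fasting white adipose. In muscle, where Gpt2 was by far the main form, the ratio was 7.98 fed and 15.7 fasting. In brown adipose the cytosolic form led, with a ratio of 0.143 fed and 0.362 fasting. Kidney was the tissue where the ratio was not higher in the fasting library, at 1.48 fed and 1.32 fasting. These ratios come from 1 library each, carry no replicate error and rest on the same gene lengths, so their level is approximate.

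Got1 over Got2, the mitochondrial aspartate transaminase, was 0.763 in the fed and 3.05 in the fasting liver, while in heart it was 1.87 and 2.08 and in kidney 0.795 and 0.716. The liver change lay in Got1, since Got2 was 388 CPM fed and 446 CPM fasting. Gls2 was at high level in liver only, and lay between 0.194 and 1.16 CPM in the other 14 libraries.

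Cps1, Otc and Tat were found at traces outside liver. Over the other 14 libraries Cps1 lay between 0 and 17.7 CPM with a median of 7.99 CPM, Tat between 0.0388 and 4.27 CPM (median 1.42 CPM) and Otc between 0 and 0.772 CPM (median 0.444 CPM). As a share of the same-treatment liver library the highest was 0.226% for Cps1, 0.251% for Tat and 0.250% for Otc. Alb, the main hepatocyte secretory product, reached at most 0.236% on the same measure, with a median of 0.0966%, beside medians of 0.0735% for Cps1 and 0.122% for Tat. The library values did not follow Alb everywhere. In the fasting lung Alb was at 0.00223% of liver, Tat at 0.169% and Otc at 0.197%, and in the fed lung Alb was at 0.0119% and Otc at 0.123%.

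The calls at trace level moved with Alb in some tissues and not in others. In heart, Cps1 was 1.22 CPM fed and 6.62 CPM fasting, and Alb was 13.999 CPM and 51.4 CPM. In kidney, Cps1 was 2.41 CPM fed and 0 fasting, and Alb was 32.2 CPM and 7.57 CPM. In spleen, Cps1 was 8.39 CPM fed and 17.3 CPM fasting while Alb was 90.2 CPM and 65.8 CPM, so there the 2 went apart in CPM. As a share of the same-treatment liver library, spleen Cps1 was 0.133% fed and 0.138% fasting. On that measure spleen Tat was 0.121% and 0.127% and spleen Alb 0.141% and 0.126%, so all were near level. The 5 hepatocyte markers summed to 19.6 CPM fed and 78.2 CPM fasting in heart, 153 CPM and 78.6 CPM in kidney, 119 CPM and 90.6 CPM in spleen and 12.1 CPM and 2.63 CPM in lung. Most of the kidney sum was Ttr, at 105 CPM and 67.1 CPM. Per 1000 CPM of Alb, Cps1 was 98.7 CPM in the fed liver, 241 CPM in the fasting liver and between 0 and 263 CPM elsewhere. In lung, Tat was 0.665 CPM fed and 3.66 CPM fasting while Alb was 7.62 CPM and 1.16 CPM, again apart. The part of hepatocyte RNA in these values was not tested.

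**Figure D4:**
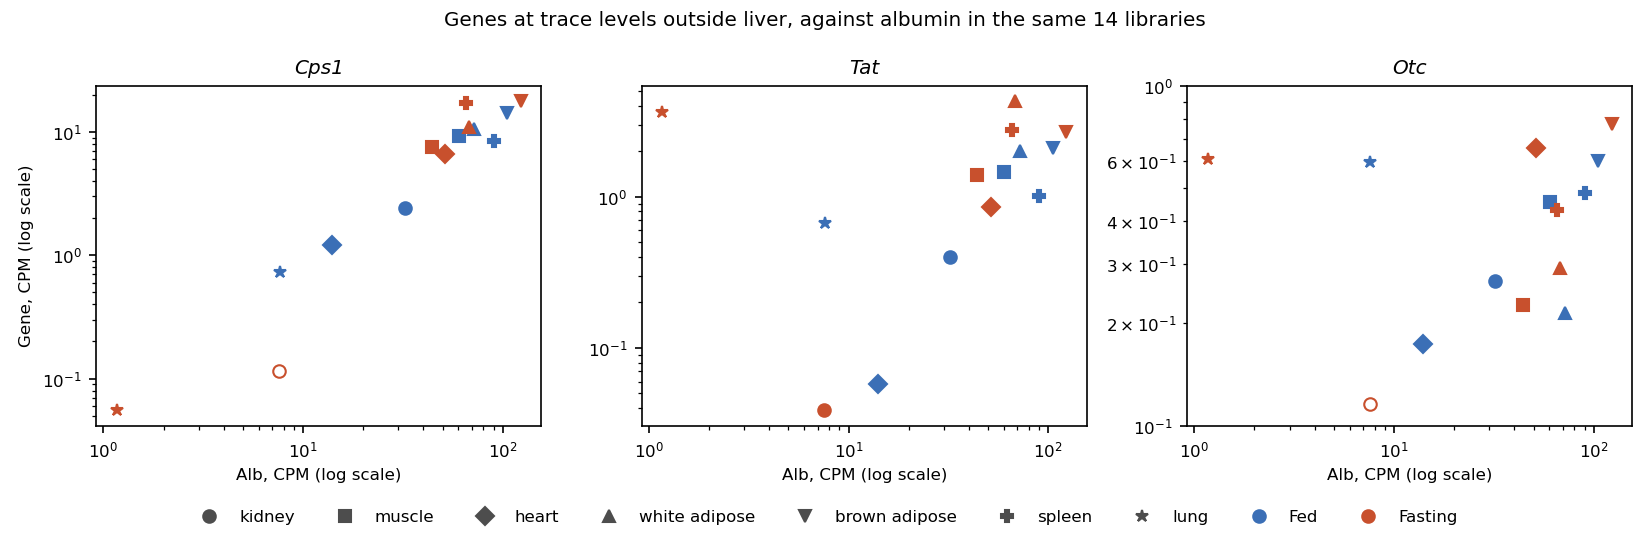
Level of Cps1, Tat and Otc against Alb in the 14 libraries of tissues other than liver, both in CPM on log axes, with tissue as the symbol and treatment as the colour. Open symbols had 0 counts and are drawn at the value of 3 counts. Cps1 lay between 0 and 263 CPM per 1000 CPM of Alb, and Tat and Otc in the lung libraries stand above the other points at the same Alb.

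Across tissues, no member changed with fasting by the test that treats the 8 tissues as the repeats. In the edgeR quasi-likelihood fit of tissue and treatment, 1.03% of 23580 genes were higher and 0.84% lower at an adjusted p under 0.05. Of the 9 members 0 were called by edgeR and 0 by DESeq2, and 2 had an unadjusted p under 0.05 in edgeR, as did 4395 of the 23580 genes, so the share of members was near that of all genes. The 2 were Tat, at 1.12 ± 0.34 (log2, SE) with an edgeR adjusted p of 0.112, and Gpt2, at 0.48 ± 0.18 with an edgeR adjusted p of 0.179. Of the other 75 amino acid genes tested, 4 were higher (Glul, Ahcy, Hpd and Klf15) and 3 lower (Gatm, Gcsh and Aldh18a1) by edgeR, named after their values were seen. DESeq2 called 13 of the 75 in all, and of all 15808 genes it tested it called 846 higher and 982 lower. Glul, which fixes ammonia into glutamine, changed by 1.17 ± 0.24 with an edgeR adjusted p of 0.0373, and Klf15, a regulator of amino acid breakdown, by 0.94 ± 0.14 with 0.0116.

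Whether the change in liver differed from that of the other 7 tissues was tested with a liver by fasting term in edgeR, with 6 residual degrees of freedom. Of all 23580 genes, 0.127% differed upward and 0.0806% downward. Of the 9 members 0 passed, with 3 at an unadjusted p under 0.05, and DESeq2 called the same 3, Asl, Got1 and Gpt2. Of all genes, 1844 of 23580 had an unadjusted p under 0.05 in edgeR, and DESeq2 called 188 higher and 155 lower of 15351. Asl differed from the other tissues by 2.24 ± 0.40 (log2, SE) with an edgeR adjusted p of 0.0888 (2.85e-05 to 0.181 over the alternatives). Got1 differed by 2.40 ± 0.49 with an edgeR adjusted p of 0.118 (0.000818 to 0.219), and Gpt2 by 1.40 ± 0.32 with 0.163 (0.00256 to 0.287). For Cps1 and Tat the estimates were 1.11 ± 1.41 and 0.49 ± 0.82, neither beyond its error. That error is the spread of changes in the other 7 tissues, where Cps1 reached at most 17.7 CPM and Tat 4.27 CPM. At such trace levels the term cannot decide whether their liver change stands apart. Of the other 75 amino acid genes, Oat, the ornithine transaminase, passed with 1.88 ± 0.29 and an edgeR adjusted p of 0.0393, and DESeq2 called 5.

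The same test for kidney called 0 of the 9 members and 0 of all genes in either direction (0.0% higher and 0.0% lower) by edgeR, with 3 members (Cps1, Tat and Otc) and 474 of all genes at an unadjusted p under 0.05. DESeq2 called 0 members and, of all genes, 6 higher and 7 lower. Ass1 differed by -0.75 ± 0.50 (log2, SE) with an edgeR adjusted p of 1.0, so the kidney and liver changes of Ass1 were opposite between the libraries without either standing apart from the spread among tissues.

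Around these enzymes stand 76 further genes of amino acid metabolism in 10 lists. In liver 20 were higher and 10 lower of 73 tested, with a median log2 fold change of 0.01, where 7.34% of all genes were higher and 15.8% lower and their median was -0.13. In kidney 9 were higher and 7 lower of 71 tested, with a median of -0.04, where 4.48% of all genes were higher and 6.23% lower and their median was -0.06. The counts of single lists below are to be read against these shares, and with 3 to 14 genes a list each is a description. The member median in liver, 0.9997, was above that of these genes pooled and below that of 1 list, methionine and cysteine.

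Methionine and cysteine genes were the list with the highest median in liver, 1.26, with 4 of 7 higher and 1 lower, beside 7.34% and 15.8% of all genes. Mat1a, which makes S-adenosylmethionine, was 2019 CPM fed and 11283 CPM fasting, a log2 fold change of 2.48. Bhmt, which remakes methionine from homocysteine, was 2629 CPM fed and 7799 CPM fasting, and Cth, of the path to cysteine, was 317 CPM and 821 CPM. In kidney this list had 0 higher and 2 lower of 7, both at low level: Mat1a had 37 counts fed and 1 fasting (1.65 CPM and 0.0388 CPM), and Bhmt was 5.35 CPM and 3.69 CPM. The Bhmt call was lost with TMM factors, at a log2 fold change of -0.48 in place of -0.54. Hepatocyte markers summed to 153 CPM and 78.6 CPM in the same libraries, mostly from Ttr at 105 CPM and 67.1 CPM. Of the others, Alb was 32.2 CPM and 7.57 CPM and Ahsg 4.32 CPM and 0.0388 CPM. The part of hepatocyte RNA in these calls was not tested. The 5 genes of the list above 10 CPM in kidney were not called.

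The branched-chain list, whose main site of use is outside liver, had 0 higher and 1 lower of 14 in liver, with a median of -0.16, and 0 of 14 called in kidney. The 1 lower gene, Hibadh, had a log2 fold change of -0.62, and of -0.49 with TMM factors, short of the threshold. The lysine list held Aass, its first enzyme, at 393 CPM fed and 1028 CPM fasting in liver (log2 fold change 1.39), and 0 of the other 2 were called. In the serine, glycine, threonine and histidine list 2 of 12 were higher in liver, both serine dehydratases: Sds was 127 CPM fed and 229 CPM fasting, and Sdsl 6.43 CPM and 23.8 CPM. Hpd and Hgd, which follow Tat in tyrosine breakdown, were 2 of 5 higher in their list, at log2 fold changes of 0.83 and 0.68. Among other transaminases 2 of 8 were higher (Bcat2 and Aadat) and Kyat1 was lower.

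The genes that feed the urea cycle went both ways in liver, with 2 higher and 2 lower of 6 tested and a median of -0.16. Slc25a15, the ornithine carrier of mitochondria, was 384.5 CPM fed and 606 CPM fasting, and Slc25a13, their aspartate and glutamate carrier, 268 CPM and 421 CPM. Glud1, which frees ammonia from glutamate, was 1215 CPM fed and 666 CPM fasting, a log2 fold change of -0.87, and Car5a, which supplies bicarbonate to Cps1, was 43.2 CPM and 23.9 CPM. Nags, which makes the activator of Cps1, was 57.2 CPM and 52.6 CPM and was not called. In kidney Glud1 went the other way, from 478 CPM fed to 731 CPM fasting (log2 fold change 0.61), and Glul was 493 CPM and 658 CPM, within the fold threshold.

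Genes that draw on ornithine and arginine parted as well, with 2 higher and 4 lower of 8 in liver. Of the 4, Aldh4a1 was at -0.53 on library totals and at -0.40 with TMM factors, short of the threshold. Oat was 527 CPM fed and 1761 CPM fasting, a log2 fold change of 1.74, whereas Gamt and Gatm, of creatine synthesis, were lower, at log2 fold changes of -1.53 and -0.89. In kidney Gatm was 673 CPM fed and 247 CPM fasting and Odc1, of polyamine synthesis, 1181 CPM and 316 CPM, so both were lower in the library where Ass1 was lower. In liver Odc1 was called higher, at 49.1 CPM fed and 84.25 CPM fasting, a log2 fold change of 0.78. Of 7 regulators 4 were higher and 1 lower in liver, the higher ones including Cebpb (39.6 CPM and 80.0 CPM), Creb3l3 (248 CPM and 499.7 CPM) and Klf15 (108 CPM and 189.5 CPM). Cebpb was also higher in kidney, at 15.4 CPM and 27.7 CPM. In the asparagine list Asns was higher in liver at low level, at 3.91 CPM fed and 6.05 CPM fasting. Aspg was not called in liver and was higher in kidney, at 65.0 CPM fed and 98.0 CPM fasting.

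**Figure D5:**
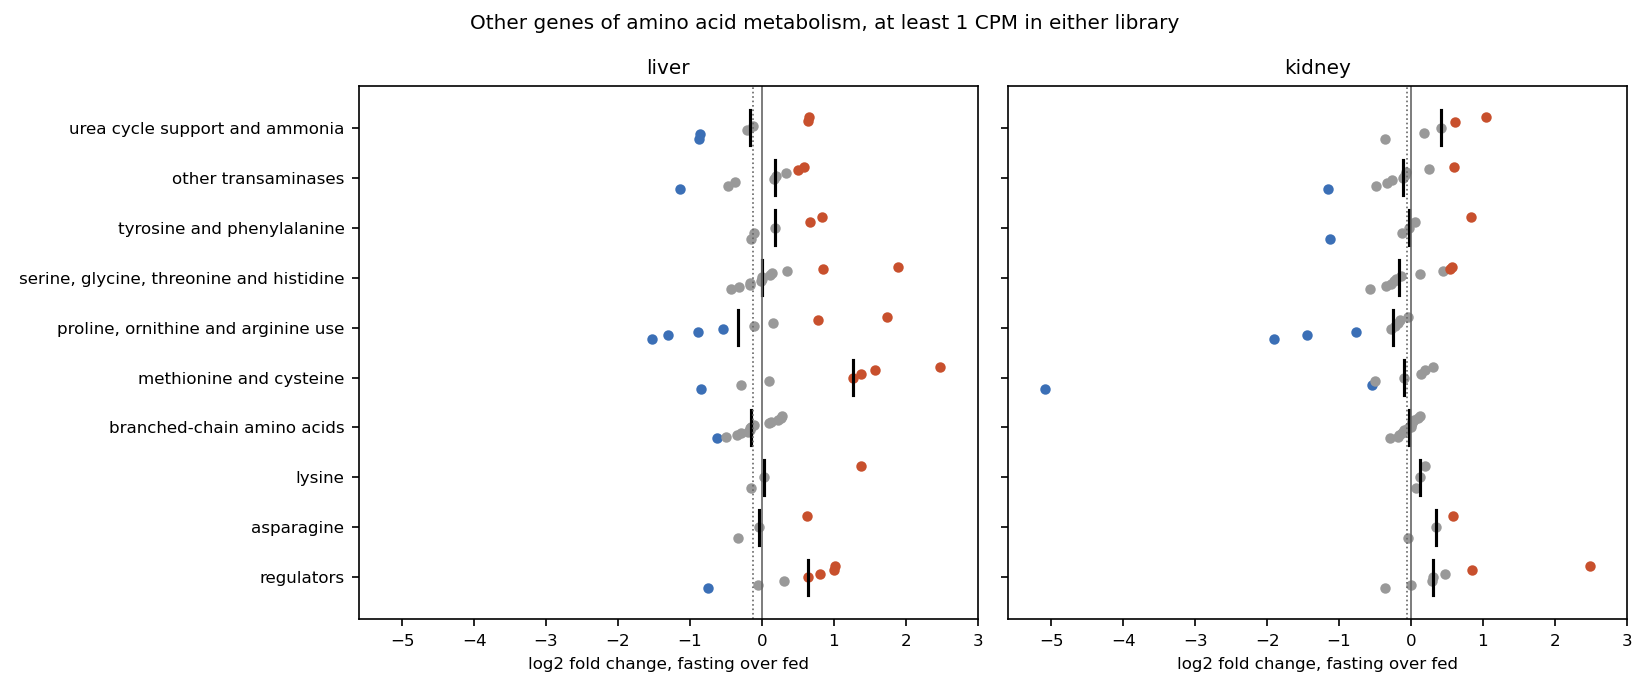
Log2 fold change, fasting over fed, of the other genes of amino acid metabolism with at least 1 CPM in either library, in liver and kidney. Red points were called higher, blue lower and grey neither, black bars are list medians and the dotted line is the median of all genes tested. In liver the methionine and cysteine list has its median at 1.26, and the branched-chain list lies close to 0.

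Last, each member was set beside the genes whose level over the 16 libraries was most like its own, by Pearson correlation of log2(CPM + 1) among 14907 genes with 10 CPM in at least 1 library. The libraries of a treatment share their animals and the values are dominated by tissue, so the coefficients are descriptive. Tat was closest to Tdo2 (r = 0.993). Cps1 was closest to Mug1 (r = 0.999) and Serpina3k (r = 0.996), Otc to Colec10 (r = 0.998) and Gm13775 (r = 0.998), and Gls2 to Dnase2b (r = 0.997) and Mup1 (r = 0.996). Ass1 was closest to its pseudogene Gm5424 (r = 0.996) and to Cyp7b1 (r = 0.992). Got1 was closest to Got2 (r = 0.966) and Got2-ps1 (r = 0.962), and Asl to Pctp (r = 0.961) and Fpgs (r = 0.955). The alanine transaminases had no close match, Gpt reaching 0.867 with Alas1 and 0.849 with Gpld1, and Gpt2 reaching 0.825 with Sec23a and 0.822 with Slc16a10.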

How the data were processed

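Short-read RNA-Seq of 16 libraries (8 tissues, Fed and Fasting) was analysed. Libraries were strand-specific and paired-end. According to the submitters' processing notes, the authors used fastp 0.23.2 and FastQC 0.11.8 for read quality, HISAT2 2.2.1.0 for alignment on GRCm38, and featureCounts from Subread 2.0 for counts over GENCODE genes. They deposited raw counts per gene and library, with each gene's length as an other value. The strand setting, and the choice of reads or pairs as the counted unit, are not given in the sources used here. Symbols came from an older GENCODE release of the same build and matched 55144 of 55385 genes. The 37 mitochondrial genes held 0 counts in every library.

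Counts were scaled to CPM on library totals, with 0.01 CPM added for fold changes as in the study's methods. TPM used the table's gene lengths. Libraries of a tissue were compared by Fisher's exact test, with exact conditional binomial intervals. Fits used edgeR 4.0.16 (TMM, filterByExpr, quasi-likelihood, Benjamini-Hochberg) with R 4.3.3, and DESeq2 1.42.0 as an alternative. Tables were handled with Python 3.11.15. The steps were tested on simulated data. A floor of 3 counts equals 0.0832 to 0.211 CPM. Named genes were the members, the up to 3 (liver) and 2 (kidney) widest changes per list at 10 CPM or more, and the 2 genes most like each member. Further genes were named outside this rule, among them Slc25a13 and Nags in liver and Mat1a and Bhmt in kidney. 3 genes of these lists are not reported here. Members and lists were chosen with earlier results of these data known. Alternatives were other scalings, pseudocounts, filters, thresholds, tools and tissues left out.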

Additional observations from a re-analysis of the deposited data

Results flagged for a closer look

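Ass1, Got1 and Gpt were called in opposite directions in different tissues. The log2 fold change of Ass1, fasting over fed, was 0.60 in liver and 1.08 in white adipose, but -0.64 in kidney and -0.64 in lung. That of Got1 was 2.201 in liver and 1.06 in white adipose, but -0.90 in brown adipose. That of Gpt was 0.56 in liver, but -0.63 in heart, -3.11 in white adipose and -1.17 in brown adipose. Each tissue has 1 library per treatment, so the difference between any pair of tissues was not tested. The liver change was tested against the mean of the other 7 tissues with edgeR, and the adjusted p was 0.785 for Ass1, 0.118 for Got1 and 0.85 for Gpt.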

How the results depend on the processing

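Calls of the 9 members within a tissue were the same with TMM factors, with DESeq2 size factors, without the 10 highest genes, with a pseudocount of 1 CPM and with adjusted p-values. Of the other amino acid genes in liver and kidney, Hibadh and Aldh4a1 (liver) and Bhmt (kidney) fell short of the fold threshold with both TMM and DESeq2 factors, and Uroc1 (0.45 on totals and 0.51 with TMM factors) and Cebpa (0.48 and 0.53) passed it in kidney. When edgeR's exact test was run with an assumed coefficient of variation of 0.2, the members higher in liver went from 7 to 4 and those lower from 1 to 0. The members lower in kidney then went from 2 to 1, and those called in either direction from 1 to 0 in muscle, from 2 to 1 in heart, from 4 to 1 in white adipose, from 3 to 1 in spleen and from 2 to 1 in lung. With an assumed value of 0.4, 1 was higher and 0 lower in liver, 1 was lower in kidney, 0 were called in muscle, heart, brown adipose and spleen, and 1 in white adipose and in lung. With a log2 fold change over 1, 4 were higher and 0 lower in liver, 1 was lower in kidney, 0 were called in muscle, and 1 in heart and in lung. With a filter at 10 CPM, chosen after seeing the data, 1 was lower in kidney, 3 were called in white adipose and 1 in each of heart, spleen and lung. Of the members whose liver change differed from other tissues, edgeR called 0, DESeq2 3 and edgeR without a filter 2, and leaving out each tissue in turn gave 0 to 2 (2 without white adipose, 1 without brown adipose). The cause of these differences was not tested. The fit across tissues pairs the fed and fasting library of each tissue. Without the tissue block edgeR called 0 of all genes in either direction, against 244 higher and 198 lower with it, and 0 members in both. No paired analysis was possible within a tissue because each tissue and treatment has 1 library and the labels give no replicate numbers. Counting error at this depth limits genes under 1 CPM, and the spread between animals is not measured.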

Other observations

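Counts of the other 76 genes of amino acid metabolism in further tissues are given beside the shares of all genes. In white adipose 19 were higher and 12 lower of 66 tested, with a median log2 fold change of 0.17, where 19.8% and 9.23% of all genes were. In heart 15 were higher and 2 lower of 63, with a median of 0.18, where 7.01% and 9.65% of all genes were. The tyrosine and phenylalanine list held 3 of the 15 (of 5 tested, median 1.11) and the methionine and cysteine list 4 (of 7 tested, median 0.73). Hepatocyte markers in heart summed to 19.6 CPM fed and 78.2 CPM fasting and adipocyte markers to 372 CPM and 832 CPM, and their part in these counts was not tested. In spleen 6 were higher and 1 lower of 60, where 3.62% and 2.33% were. In brown adipose 10 were higher and 7 lower of 63, where 8.68% and 12.2% were. In muscle 5 were higher and 7 lower of 54, where 7.8% and 16.4% were, and in lung 4 and 3 of 57, where 4.23% and 10.1% were. These counts compare single libraries.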
